A study of Mus musculus with 6 samples.

Results

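The control sciatic nerve at postnatal day 4 (P4) is described here by its own transcriptome, with no comparison to the mutants. The members are the 3 control libraries of the 6 in the series, taken by their genotype label, and all 59485 genes of the deposited table, of which 23506 carry a gene symbol and 35979 do not. Each library comes from the sciatic nerve of a separate mouse that the labels call wild-type. According to the methods of the study, wild-type animals carry a floxed Adar1 allele in 1 or both copies (Adar1 fl/+;R26R in the first case, Adar1 fl/fl;R26R in the second) without Cre. They also carry R26R, a YFP reporter that stays silent without Cre, and which of the 2 genotypes each animal had is not given. The 3 mutant libraries (HtPA-Cre;Adar1 fl/fl;R26R) were not used. RNA with a poly-A tail was copied into strand-oriented cDNA and sequenced, so the values are sums over every cell type of the dissected nerve, and fewer cells of a type cannot be told apart from less RNA in each cell.

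The sciatic nerve carries motor and sensory axons to the hindlimb. The axons' cell bodies lie in the spinal cord and the dorsal root ganglia, so most RNA of a dissected nerve belongs to the cells around the axons. Schwann cells, which descend from the neural crest, sort large axons one by one during the first days after birth and wrap each of them in myelin, a stack of membrane rich in cholesterol and galactolipids and held together by a few abundant proteins. Around them lie endoneurial fibroblasts that secrete collagen, the sleeve of perineurial cells, blood vessels with endothelial cells and pericytes, resident macrophages and mast cells.

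Few genes held a large share of the reads of the control nerve, and the highest of them were loci of mitochondria and ribosomal RNA and genes of myelin and fibrillar collagen. The libraries held 55330839, 68654387 and 50938349 reads on genes in replicates 1, 2 and 3, and between 28502 and 28906 genes had reads in each. A gene's value, its normalized count, is the number of reads counted on it divided by a factor for the library, and a single read was worth 0.945 to 1.27 of it. Errors are SDs over the 3 control libraries (n = 3), and the labels name no batch or date that could separate these libraries. Reads were present in all 3 libraries for 24588 genes and in none of them for 26398, which is 44.4% of the table. A mean normalized count of at least 10 was reached by 23357 genes, of at least 1000 by 7556 genes, and of at least 100000 by 38 genes. All gene lists below but the mitochondrial one hold genes with a symbol. Of these 23506 genes, 15496 reached a mean of at least 10 and 7177 of at least 1000.

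The highest gene held 2.67 ± 0.22% of the reads of a library and the 10 highest held 18.2 ± 0.73%. The 100 highest genes held 34.8 ± 0.66% and the 1000 highest 61.7 ± 0.73%. Read from the mean of the 3 libraries, 23 genes were enough for 25% of all reads, 433 genes for 50% and 5355 genes for 90%. The number needed for 50% was 458, 414 and 423 in replicates 1, 2 and 3, so the most concentrated library and the least concentrated were close to each other.

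**Figure D1:**
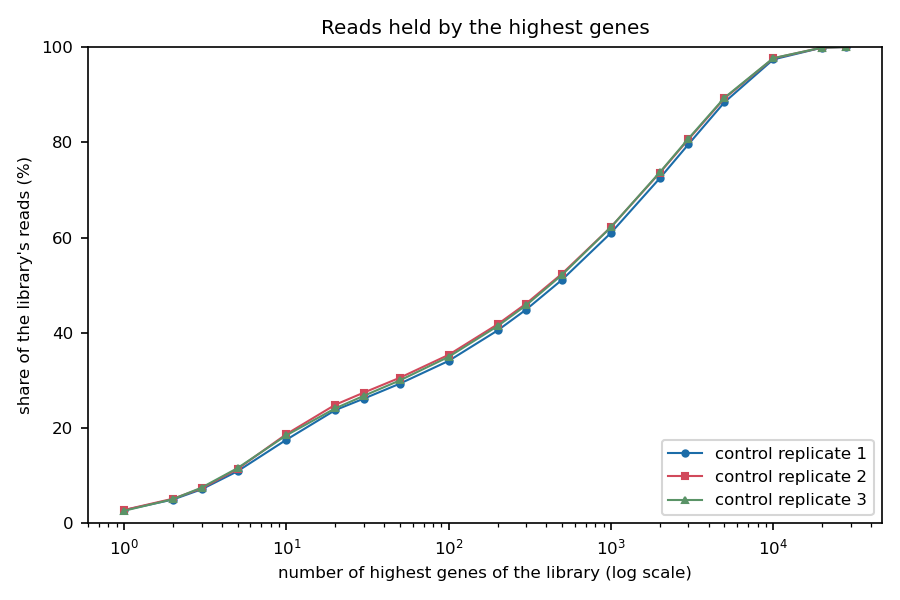
Share of a library's reads (y axis, %) held by its highest genes (x axis, number of genes on a log scale), with genes ordered within each of the 3 control libraries. The 3 curves lie close together, and 458, 414 and 423 genes hold 50% of the reads of replicates 1, 2 and 3.

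Of the 30 highest genes, 22 carried a symbol and 8 did not. The 8 loci without a symbol could be placed by their mm10 coordinates against GENCODE release M21, which uses the same build. Among the 10 highest, 5 were such loci. The first of all genes (GSMG0041514, chromosome M, 5325 to 6941, plus strand) covers mt-Co1, a subunit of cytochrome c oxidase encoded in the mitochondrial genome, and its normalized counts were 1707661, 1824839 and 1562856. The third covers mt-Nd5 and mt-Cytb (1314287 ± 87787), the ninth mt-Rnr2 and mt-Nd1 (740726 ± 56460), the 11th mt-Nd4l and mt-Nd4 (721824 ± 65526) and the 19th mt-Nd2 (257980 ± 13654). All 13 loci on the mitochondrial chromosome took 7.99, 8.11 and 7.10% of the reads, with replicate 3 the lowest, and the 8 on its plus strand took 7.70 ± 0.56% of the 7.73 ± 0.55% in all.

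Another 2 of the 8 loci lie on chromosome 1, where GENCODE lists unprocessed pseudogenes that are copies of a stretch of the mitochondrial genome. The locus over Gm28437 and Gm10925 (chromosome 1, 24613188 to 24614814) was 10th with 722251 ± 47317, and that over Gm28661 (24614879 to 24615568) was 17th with 283465 ± 20296. The 6 loci of this cluster took 1.61 ± 0.12% of the reads. Their sequences are shown because they decide how far these values can be read. GENCODE's transcripts of mt-Co3, mt-Atp6 and mt-Co2 are the same as those of Gm28437, Gm10925 and Gm28661 at 783 of 783, 678 of 678 and 681 of 681 compared bases. mt-Nd3 and Gm28438 share 344 of 345 bases, and mt-Co1 and Gm29216 share 486 of 492, and the first 90 bases of these last 2 copies are set beside the mitochondrial gene, with the bases that differ in capitals.
mt-Nd3, bases 1 to 90: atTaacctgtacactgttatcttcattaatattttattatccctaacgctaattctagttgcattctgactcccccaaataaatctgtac
Gm28438, bases 1 to 90: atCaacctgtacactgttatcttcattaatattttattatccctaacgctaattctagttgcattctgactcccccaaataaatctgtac
mt-Co1, bases 1054 to 1143: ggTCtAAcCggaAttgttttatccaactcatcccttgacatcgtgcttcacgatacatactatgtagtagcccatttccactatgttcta
Gm29216, bases 1 to 90: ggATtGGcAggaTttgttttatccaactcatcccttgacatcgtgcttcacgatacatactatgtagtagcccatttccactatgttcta
Loci that cover mt-Co2, mt-Atp6 and mt-Co3 on the plus strand of the mitochondrial chromosome are not analysed here. A read from an identical stretch cannot be assigned to the mitochondrial gene or to its copy by its sequence, so the share on chromosome 1 is given as counted and no level is drawn from it.

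The eighth of these loci (GSMG0050945, chromosome 17, 39842997 to 39848829) was the most uneven of the 30 highest. RefSeq (GRCm38.p6) places the ribosomal RNA pseudogene Rn18s-rs5 inside it, and GENCODE lists Gm26917 and Gm42418 on its strand and a ribosomal RNA gene on the other strand. Its normalized counts were 673356, 1324042 and 1572867, which is 1.10, 2.04 and 2.44% of the reads. Replicate 1 was the low library. Ribosomal RNA has no poly-A tail of its own, and how much of it each library kept was not tested. All other loci without a symbol took 3.39 ± 0.052% of the reads, and genes with a symbol 85.4 ± 0.53%.

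**Figure D2:**
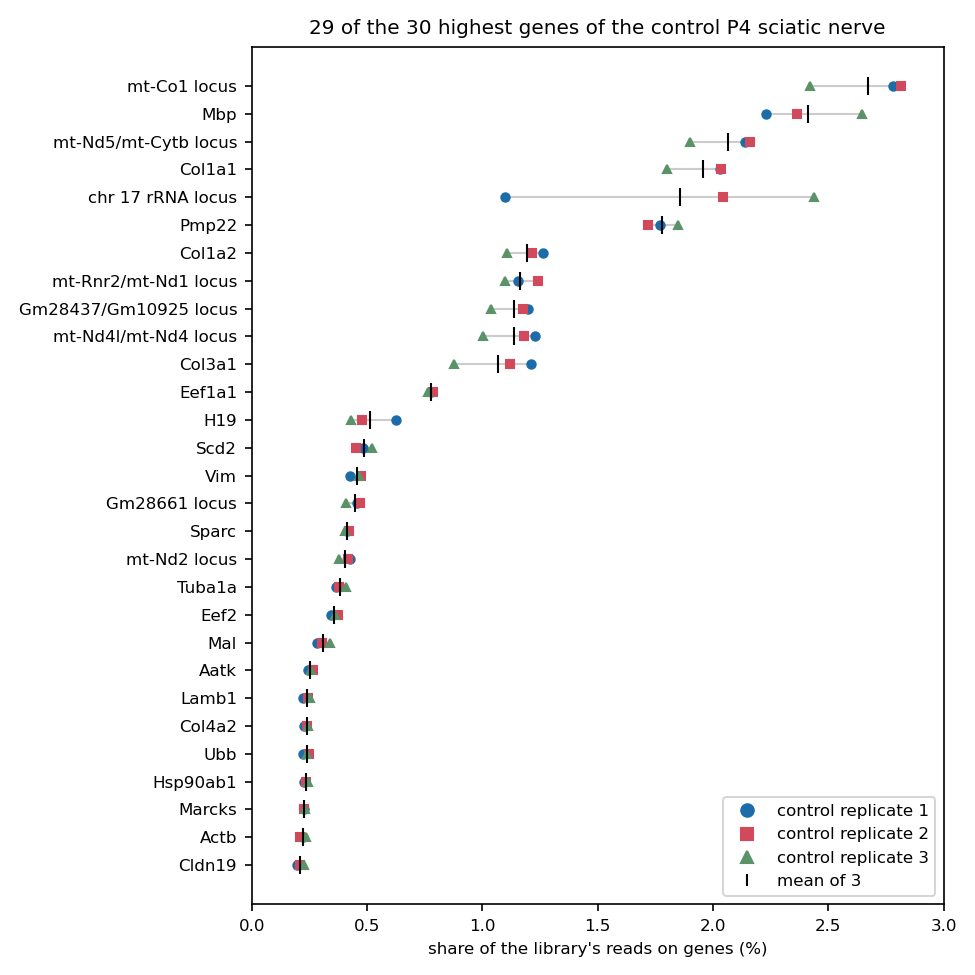
Share of the library's reads on genes (x axis, %) for 29 of the 30 genes of highest mean, from top to bottom in order of rank, with a symbol for each of the 3 control libraries and a bar for their mean. The chromosome 17 rRNA locus runs from 1.10 to 2.44%, whereas Eef1a1 stays near 0.775 ± 0.010% in all 3 libraries.

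Among the named genes, Mbp was the second of all genes. It encodes myelin basic protein, which holds the cytoplasmic faces of the myelin membrane together, and its normalized counts were 1369737, 1533898 and 1707837 in replicates 1, 2 and 3. Pmp22 (chromosome 11, 63128982 to 63159546), a membrane protein of compact myelin, reached 1087466, 1115389 and 1192464. Replicate 3 was the highest library for both genes. Replicate 1 was the lowest by normalized count, but as a share of the library Pmp22 was lowest in replicate 2 (1.77, 1.72 and 1.85%). The order of libraries is given by normalized count from here on, and the count by share is added where it differs. Of all 23357 genes with a mean of at least 10, 8267, 7203 and 7887 were highest in replicates 1, 2 and 3. The lowest library was replicate 1 for 9001, replicate 2 for 6758 and replicate 3 for 7598 of them. Mbp and Pmp22 had ranks 2 and 7 of all genes.

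Col1a1 and Col1a2, which encode the chains of type I collagen, had ranks 5 and 8. Col1a1 (chromosome 11, 94936224 to 94953040) had 1246686, 1320418 and 1163031, and Col1a2 775619, 787877 and 714445. Col3a1, the chain of type III collagen, was 12th with 744931, 725121 and 566576. In contrast to these myelin genes, replicate 3 was the lowest library for all 3 collagen genes. Per kilobase of exon the level of Col1a1 was 1.48 ± 0.032 times that of Col1a2.

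Other named genes of the 30 highest are of several kinds. The elongation factors Eef1a1 (493047 ± 16507) and Eef2 (227827 ± 16195) carry out protein synthesis. The imprinted noncoding RNA H19 was 14th with 383769, 311074 and 277006, highest in replicate 1. Scd2, which makes the monounsaturated fatty acids of membrane lipids, was 15th (308943 ± 23385). Cytoskeletal genes were Vim (289305 ± 23401), the intermediate filament of Schwann cells and mesenchymal cells, Tuba1a (244376 ± 18659) and Actb (140396 ± 9226). Of the extracellular matrix came Sparc (262923 ± 10731), a collagen-binding glycoprotein, and Lamb1 (152969 ± 13545) and Col4a2 (151502 ± 10047) of the basal lamina. Mal (196589 ± 23172), a proteolipid of myelin, and Cldn19 (133033 ± 12852), the claudin of Schwann cell tight junctions, are further myelin genes. Aatk, a serine/threonine kinase gene (161981 ± 11875), the polyubiquitin gene Ubb (151158 ± 11834), the chaperone Hsp90ab1 (149404 ± 9718) and the actin-binding protein Marcks (144411 ± 5842) were also among the 30. The order within the 30 is loose, since the 3 values of a gene overlapped those of the next gene in rank for 26 of the 30.

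Counts of reads favor long genes, so levels between genes were compared per kilobase of merged exon, which could be done for 22350 of the 23506 genes with a symbol. Pmp22 reached 504625, 517582 and 553347 normalized counts per kb. Eef1a1 was lower at 274831 ± 9201 per kb, without overlap with Pmp22. Col1a1 (209676 ± 13279) and Mbp (189235 ± 20814) followed per kb with overlapping ranges, and Rplp1, a protein of the ribosomal stalk, was at 167529 ± 12560. The next 5 were Col1a2 (141981 ± 7356), H19 (141710 ± 23855), Tuba1a (135539 ± 10349), Vim (131922 ± 10671) and Col3a1 (122012 ± 17570), whose ranges overlap each other. The exon length merges all annotated transcripts of a gene, so it is too long for a gene such as Mbp that has a large unit upstream of its myelin transcripts, and its level per kb is then too low. Pmp22 depends on the length as well. By bases that all transcripts share, a setting chosen after seeing the data, its length was 0.591 instead of 2.155 kb. Its mean level was then 1915014 per kb, while that of Eef1a1 stayed at 274831.

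The 13 myelin protein genes held 6.58, 6.97 and 7.68% of the reads in replicates 1, 2 and 3, and replicate 3 was the highest library for 10 of them. All 13 had a mean normalized count of at least 1000, against 7177 of the 23506 genes with a symbol and 7556 of all 59485 genes. Of the 13, 7 were among the 100 highest. Gjb1, which encodes the gap junction protein connexin 32 of noncompact myelin, had the fewest reads of the list (5949, 5654 and 6602), and per kb its level was 3555 ± 284. Over the list, the lowest level per kb was 1007 ± 48.9 for Drp2, a dystrophin-related protein of Schwann cells (chosen after its values were seen), with a median of 21560.

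Myelin lipid genes were broadly present. All 20 cholesterol synthesis genes had a mean of at least 10 and 19 of at least 1000. Of the 23506 genes with a symbol, 15496 and 7177 did. Together the 20 genes took 0.50, 0.45 and 0.52% of the reads. Hmgcs1, which starts the mevalonate pathway, had 59449, 52140 and 59890, lowest in replicate 2. Hsd17b7, a sterol ketone reductase, had the fewest reads (922 ± 152). The 15 fatty acid and sphingolipid genes took 0.837 ± 0.051%, led by Scd2, by Elovl6, an elongase of fatty acids (55209 ± 5243), and by Gal3st1, which makes sulfatide (28810 ± 3951). Sptlc1, a subunit of serine palmitoyltransferase, had the fewest reads of this list (2352 ± 121). Replicate 3 was the highest library for 27 of the 35 lipid genes (22 by share) and replicate 2 for none.

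The transcription factors of the Schwann cell lineage were present at a lower level. Egr2, which drives the myelin genes, had 24383, 28904 and 30362. Pou3f1, the factor of the promyelinating stage, had 23016, 22215 and 22124. Sox10, needed at every stage of the lineage, had 12618, 11719 and 10920. The SD over the 3 libraries was 11.2% of the mean for Egr2, 2.19% for Pou3f1 and 7.23% for Sox10. Replicate 1 is the lowest for Egr2 and the highest for Pou3f1 and Sox10. Egr2 reads were 5.47 ± 0.84 times those of Egr1. The neural crest factor Tfap2b had the fewest reads of the list, with 0, 9.45 and 3.80. In all, 15 of the 16 factors measured had a mean of at least 10, as did 15496 of the 23506 genes with a symbol. Sox2 and Jun are not analysed here.

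The list of immature and nonmyelinating Schwann cell genes took 0.189 ± 0.011% of the reads. Ednrb held 0.0770% and Dhh 0.0598%, so this share rests mostly on these genes. Ednrb, the endothelin receptor of the neural crest lineage, led the list (47959, 45575 and 53296), before Dhh, a hedgehog ligand that Schwann cells send to the perineurium (38127 ± 4239), and S100b, a calcium-binding protein of Schwann cells (8195 ± 171). Gfap, the filament of nonmyelinating and injured Schwann cells, had few reads (1.11, 15.1 and 5.07), and only its value in replicate 1 was under the floor. A library in which no read falls on a gene still allows a value of up to 3.33, 2.83 and 3.80 in replicates 1, 2 and 3 (3 reads, counting error only). Of the 10 genes for signaling between axon, matrix and Schwann cell, dystroglycan (Dag1, 122494 ± 14235) and the integrin subunits Itgb1 (39988 ± 1834) and Itga6 (35474 ± 551), which bind laminin, had the most reads. Nrg1, whose product signals from the axon to Schwann cell ErbB receptors, had the fewest (0, 15.1 and 7.60).

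The basal lamina genes took 0.878, 0.947 and 0.955% of the reads. Lamb1 and Col4a2 led, followed by Lama2 (45123, 54263 and 56855), the laminin chain of the Schwann cell basal lamina. Lama5 had the fewest reads (880 ± 52.7). All 11 laminin chains together took 0.434 ± 0.021% of the reads, and Lama3 and Lamb3, chains of epithelial laminins, had means of 109 ± 66.3 and 18.5 ± 11.7 (both chosen after their values were seen). At the axoglial junction, the adhesion molecule Cadm4 had 42953, 56815 and 63893, Sptbn1, a spectrin, 12725 ± 876, and Nrcam, a cell adhesion molecule of the node of Ranvier, 11644 ± 560. Cntnap1, the paranodal protein that belongs to the axon, had the fewest reads of that list (612 ± 60.0).

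**Figure D3:**
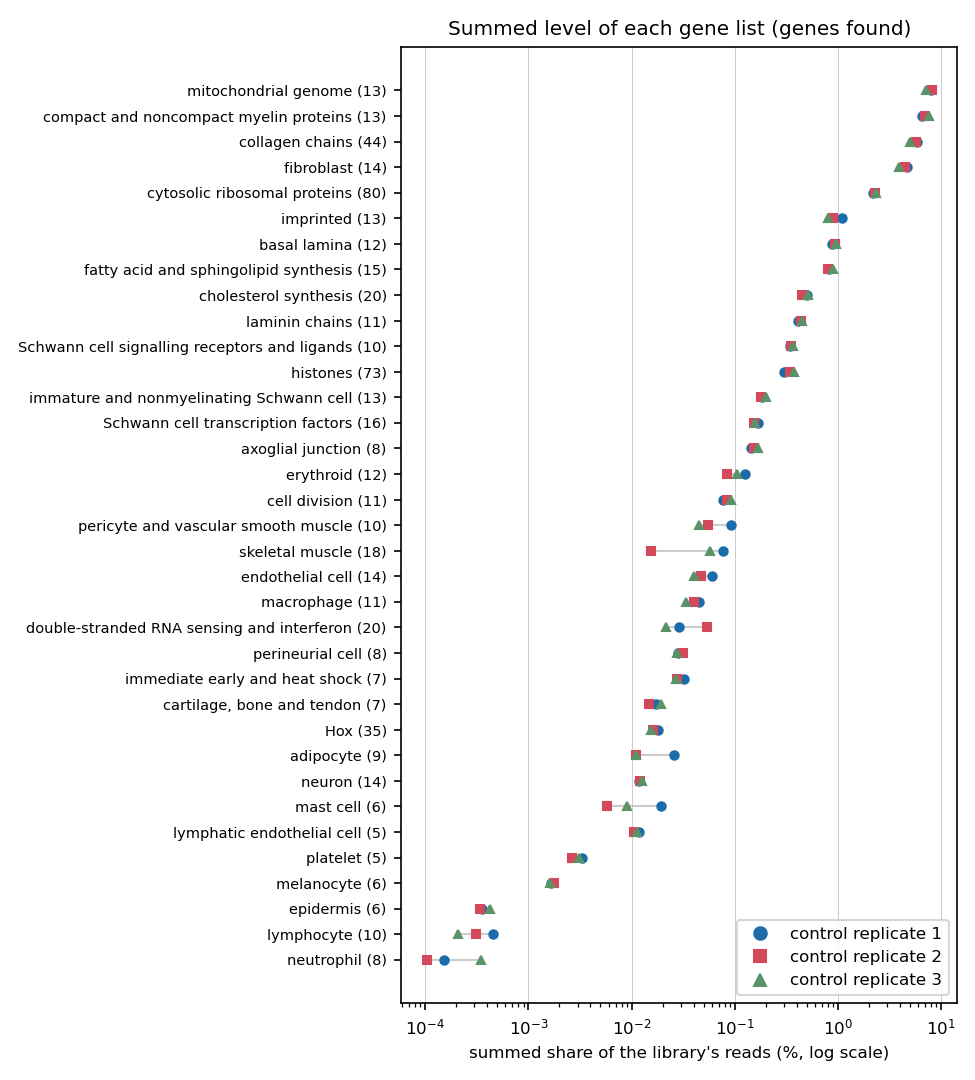
Summed share of the library's reads (x axis, %, log scale) for each of the 35 gene lists, with the number of genes found in parentheses and a symbol for each of the 3 control libraries. Myelin proteins and the fibroblast list lie between 3.90 and 7.68% in every library, whereas lymphocyte and neutrophil lists lie under 0.001%.

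Since a share of reads favors lists of long genes, the shares were also computed from levels per kilobase, as a share of the summed level of all genes with a length. The myelin list was then at 7.54%, against 7.08% of all reads and 8.29% of the reads on genes with a symbol. The lists that fell by more than 1.5-fold were basal lamina (0.45%), laminin chains (0.209%), collagen chains (3.02%), fibroblast (2.56%), Schwann cell signaling (0.225%), lymphatic endothelium (0.0039%) and cartilage, bone and tendon (0.0114%). Those that rose by more than 1.5-fold, besides the ribosomal proteins, were histones (0.53%), macrophage (0.0736%), mast cell (0.0271%), neutrophil (0.000881%), erythroid (0.292%), platelet (0.0104%), skeletal muscle (0.0856%) and adipocyte (0.0444%). Rows that join several symbols have no length and are left out of these shares, beta globin among them. Loci without a symbol have no length either, so the total changed too, and the folds above are against shares of all reads. Against shares of the reads on genes with a symbol, histones (0.397%) and skeletal muscle (0.0582%) rose by less than 1.5-fold. On that total, fatty acid and sphingolipid synthesis fell by more than 1.5-fold, from 0.979% to 0.601% per kilobase.

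Of the 7 groups of lists for cell types, lipids and tissues, fibroblast genes had the most reads after the Schwann cell lists, and they kept that place when reads were divided by exon length (2.56 against 8.07%). The 14 genes of the fibroblast list took 4.68, 4.51 and 3.90% of the reads, nearly all of it on Col1a1, Col1a2 and Col3a1, and replicate 3 was the lowest library for all 14. The reads of the myelin list were 1.41, 1.55 and 1.97 times those of the fibroblast list in replicates 1, 2 and 3. The transcription factor Etv1 had the fewest reads of the list (373 ± 34.5). The 44 collagen chains together took 5.54 ± 0.44% of the reads (3.02% when divided by exon length) and 9 of them were among the 100 highest genes, while Col25a1, a neuronal collagen, was near the floor (3.33, 2.83 and 2.53). Perineurial genes took 0.0292 ± 0.0022%, with Itgb4, an integrin subunit that Schwann cells also make, at 9176 ± 1409, the tight junction gene Cldn1 at 7100 ± 838, the glucose transporter Slc2a1 at 1422 ± 81.3 and Krt19, a keratin, at 95.5 ± 27.1.

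The vascular lists took 0.165, 0.113 and 0.0963% of the reads, and replicate 1 was the highest library for 27 of their 29 genes (28 by share). Among endothelial genes, the cadherin Cdh5 had 6626, 5965 and 4790, the adhesion molecule Pecam1 5909, 4615 and 3745, and the secreted factor Egfl7 4134, 3638 and 3408. All 14 endothelial genes were highest in replicate 1 and lowest in replicate 3, and Erg, an endothelial transcription factor, had the fewest reads (231 ± 41.6). The reads of the fibroblast list were 77.5, 95.4 and 97.6 times those of the endothelial list. Lymphatic endothelial genes took 0.0112 ± 0.00059%, most of it on Reln (5826 ± 616), which Schwann cells also make. Lyve1, a hyaluronan receptor, had 520 ± 134, the growth factor receptor Flt4 416 ± 136, and Mmrn1 was found at 282, 13.2 and 0.

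The smooth muscle genes Acta2, Tagln and Myh11 were higher in replicate 1 than in the other libraries, and the pericyte gene Rgs5 was less so. Rgs5, a G-protein regulator of pericytes, had 16929, 14398 and 11045. Acta2, smooth muscle actin, had 16145, 4690 and 4235, and Tagln, an actin-binding protein of smooth muscle, 8117, 3128 and 3031. Myh11, the myosin of smooth muscle, went from 244 in replicate 1 to 14.2 and 17.7 in replicates 2 and 3. The list took 0.0925, 0.0548 and 0.0451% of the reads.

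The immune lists took 0.0651, 0.0464 and 0.0432% of the reads, and macrophage genes held most of these. Csf1r, the receptor for the macrophage growth factor, had 5671, 4085 and 4108. The complement genes C1qa and C1qc had 4295 ± 466 and 4176 ± 701, and Aif1, the microglia and macrophage protein IBA1, the fewest reads of the list (360 ± 78.3). All 11 macrophage genes had a mean of at least 10, as did 15496 of the 23506 genes with a symbol. The reads of the myelin list were 146, 173 and 228 times those of the macrophage list. Lysozyme is counted in a row that joins Lyz2 with Lyz1 and was left out of the list.

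Mast cell proteases were highest in replicate 1. Mcpt4, a chymase, had 3258, 1140 and 1671, the tryptase Tpsb2 3154, 850 and 1366, and Cma1, another chymase, 2771, 812 and 1282. The mast cell list took 0.0193, 0.0058 and 0.0090% of the reads, a range of 3.34-fold and 0.0074% without replicate 1, while Fcer1a, a chain of the IgE receptor, was at 9.20 ± 10.1. T cell, B cell and NK cell genes had few reads. Cd4, which macrophages also make, led them (153, 92.6 and 69.7), then Klrb1c, a receptor of NK cells (25.5 ± 14.9), and Cd79a, a part of the B cell receptor (20.6 ± 9.18), and Cd3d and Cd8a had no read in any library. The 10 lymphocyte genes took 0.000325 ± 0.000127% of the reads. Neutrophil genes took 0.000202 ± 0.000129%, with S100a9 at 44.4, 3.78 and 79.8, S100a8 at 29.3 ± 29.5 and the granule protein gene Ngp at 21.8 ± 19.2, and Ly6g had no read, and without replicate 3 the neutrophil list took 0.000129%.

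Hba-a1 and the main beta globin row had a higher mean than any gene of the vascular, immune, muscle and fat lists. Hba-a1 and Hba-a2 encode the adult alpha globin chain and had 27466, 20735 and 25231 and 14496, 10791 and 13910. The row that joins Hbb-bs with Hbb-b1, adult beta globin, had 27366, 18258 and 24072. Replicate 2 was the lowest of the 3 libraries for each of these rows. A further row of adult beta globin, joining Hbb-bt with Hbb-b2, had 5204 ± 1477 (chosen after its values were seen). Adult alpha globin reads were 1.22, 1.38 and 1.39 times adult beta globin reads, and the embryonic globins Hba-x and Hbb-bh1 had no read. The erythroid list took 0.126, 0.0849 and 0.106% of the reads.
The coding sequences of Hba-a1 and Hba-a2, each read as the longest open frame of the GENCODE transcript, are 429 bases long and differ at 1 base, which is why the split of reads between them is uncertain within the coding part. Bases 336 to 425 hold that base, in capitals.
Hba-a1: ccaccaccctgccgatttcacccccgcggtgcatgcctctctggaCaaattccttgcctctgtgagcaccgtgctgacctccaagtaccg
Hba-a2: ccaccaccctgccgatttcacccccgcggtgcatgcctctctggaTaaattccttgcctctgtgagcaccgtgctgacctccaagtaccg
Platelet genes took 0.0030 ± 0.00034% of the reads, with the chemokine Pf4 at 1451, 1059 and 1385, the integrin subunit Itga2b at 367 ± 24.9, Gp1bb at 218 ± 54.5 and Gp9 at 26.7, 0 and 0.

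**Figure D4:**
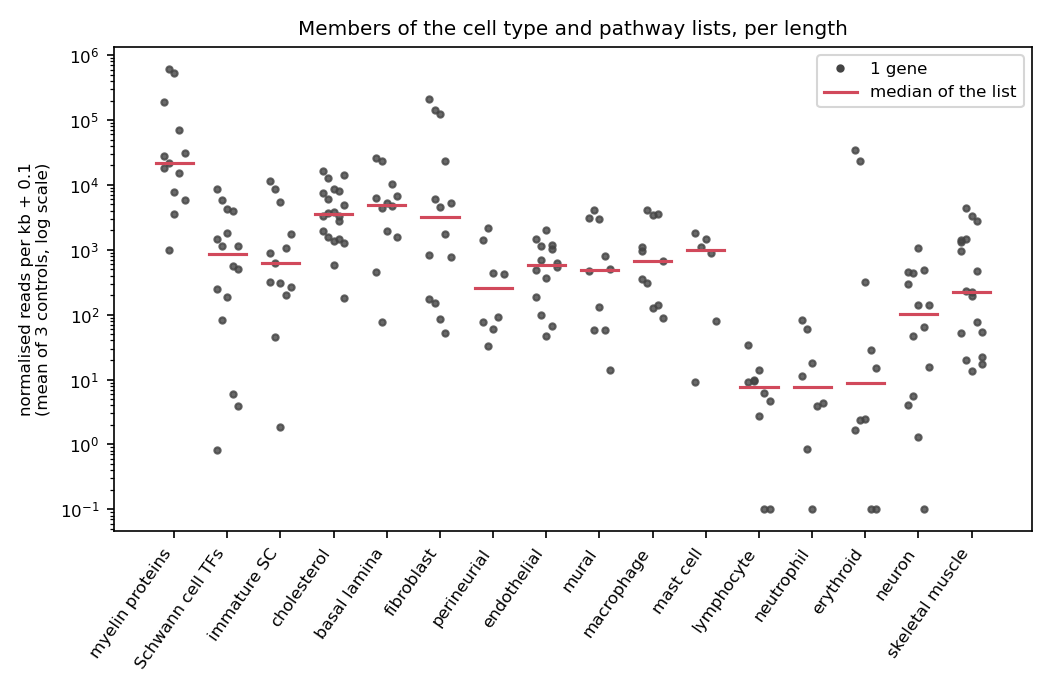
Mean normalized count per kilobase of exon in the 3 controls (y axis, log scale, 0.1 added so that genes without reads can be drawn at 0.1) for the members of 16 gene lists, with a point for each gene that has a length and a red line for the median of the list. The median of myelin protein genes is 21560 and that of endothelial genes 592, and the 2 adult alpha globin genes stand above the other erythroid genes drawn, which do not include the joined beta globin rows, since these have no length.

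Other tissues were visible in the dissected nerve, and they differed between the libraries. The 18 skeletal muscle genes took 0.0764, 0.0154 and 0.0578% of the reads, a range of 4.96-fold, and replicate 2 was the lowest library for all 18. Myh8, the perinatal myosin heavy chain, had 11812, 2451 and 8101, the skeletal actin gene Acta1 9727, 1523 and 8070, and the myosin light chain gene Mylpf 3892, 922 and 3391. Myod1, a muscle transcription factor, was at 40.0, 0 and 35.5. The 9 adipocyte genes took 0.0260, 0.0110 and 0.0111% and all 9 were highest in replicate 1. Fabp4, which endothelial cells also make, had 9720, 5441 and 4772, lipoprotein lipase (Lpl) 3521, 1639 and 1779, and the adipokine gene Adipoq 1134, 7.56 and 362, and Ucp1 was at 12.3 ± 10.2.

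Neuronal genes were low in all libraries, at 0.0122 ± 0.00043% of the reads for 14 genes. The neurofilament genes Nefh and Nefl had 1797 ± 156 and 1479 ± 120 and Uchl1 1237 ± 308, while Scn10a, the sodium channel of pain neurons, had no read. Col2a1, the chain of cartilage collagen, had 10242, 9334 and 11755, but Acan and Matn1 of cartilage were at 98.8 ± 40.1 and 5.58 ± 3.64 (Acan was chosen after its values were seen), Ibsp of bone at 0, 26.5 and 433 and Tnmd of tendon at 146 ± 89.2. Epidermal genes took 0.000373 ± 4.57e-05% of the reads, with Krt10 at 200 ± 18.4, Krt1 at 20.9 ± 8.71, Trp63 at 8.97 ± 6.19 and Krt5 at 0, 0 and 2.53. Of the pigment cell genes, Mitf (452 ± 27.1), Pmel (337 ± 44.7) and Tyrp1 (220 ± 102) were present, and Tyr and Mlana had no read.

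Cell division genes had reads throughout, at 0.0765, 0.0848 and 0.0927% for the 11 genes used. Top2a, the topoisomerase of dividing cells, had 8506, 9649 and 11141, the sliding clamp Pcna 7192, 8074 and 8595, the replication factor Mcm2 5708, 6645 and 7436, and Ccnb1, a mitotic cyclin, 1255, 1274 and 1407. Replicate 1 was the lowest library for all 11 by normalized count and for 10 by share. By normalized count it was the lowest for 9001 of all 23357 genes with a mean of at least 10. Histone genes took 0.339 ± 0.036%, led by the replacement histones H3f3b (64882, 77604 and 85143) and H3f3a (28286 ± 382) and the linker histone H1f0 (46017 ± 8159), and replication-dependent histone mRNAs have no poly-A tail, so most of them are underrepresented in such libraries. The 80 cytosolic ribosomal protein genes took 2.26 ± 0.081% of the reads, and 7.09% when reads were divided by exon length. Rplp0 (95982, 75067 and 108760), Rplp1 (83597 ± 6268) and Rpl4 (75037 ± 3370) led them and Rpl10l, expressed in testis, had no read.

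Imprinted genes of fetal and neonatal growth took 1.10, 0.897 and 0.804% of the reads, and replicate 1 was the highest library for 11 of the 13 (12 by share). After H19 came Gnas, a G-protein alpha subunit (79956 ± 1798), and the noncoding RNA Meg3 (43618 ± 3529), and Peg3 had the fewest (300 ± 177). Of the 7 immediate early genes used, which do not include Jun, Junb and Jund (not analysed here), Nr4a1 (7685 ± 291), Egr1 (5118 ± 244) and Ier2 (1576 ± 317) had the most reads and Fosb the fewest (301 ± 121).

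Hox genes, which record the position of a cell along the body axis, differed in reads between paralog groups, which are numbered from anterior to posterior. Their 35 genes took only 0.0165 ± 0.0012% of the reads, led by Hoxd8 (1563 ± 136), Hoxc4 (1369 ± 90.4) and Hoxc10 (1114 ± 92.8). The genes counted number 3, 2, 2, 3, 3, 3, 1, 2, 4, 3, 3, 2 and 4 in groups 1 to 13. A sum over a group therefore also depends on how many genes it holds, and is no level per gene. Summed over the genes of a group, and not per length, the normalized counts were 45.5 ± 26.5 in group 1, 414 ± 47.3 in group 2, 164 ± 20.2 in group 3, 1506 ± 104 in group 4, 596 ± 33.8 in group 5, 1287 ± 97.0 in group 6 and 410 ± 50.4 in group 7, and 1882 ± 160 in group 8, 2060 ± 132 in group 9 and 1806 ± 329 in group 10, whose ranges overlap, and the range of group 10 also overlaps that of group 4. They were 304 ± 56.7 in group 11, and 1.48 ± 2.56 and 15.5 ± 9.77 in groups 12 and 13. Hoxa13, Hoxb13, Hoxd12 and Hoxd13 had no read (Hoxb13 and Hoxd13 were named after their values were seen).

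The spread between the 3 controls was measured over genes. For the 14937 genes with a mean of at least 100, the median coefficient of variation (CV, the SD divided by the mean) over the 3 libraries was 11.2%. With edgeR, the biological coefficient of variation common to these genes was 20.7%. The highest library exceeded the lowest by at least 2-fold for 1082 of them (7.24%), but for 129 of the 7556 genes with a mean of at least 1000 (1.71%). Between the 2 libraries left when replicate 1, 2 or 3 was set aside, 399, 628 and 582 genes with a mean of at least 100 differed by at least 2-fold, and without replicate 1 the median CV was 7.22%. Pearson's r of log2(normalized count + 1) between libraries was 0.946 to 0.952 and Spearman's rho 0.968 to 0.970 across 23357 genes, which are not independent of each other.

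Interferon-induced genes were higher in replicate 2. Adar1 edits double-stranded RNA and keeps it from its sensors, so the genes of this response are of interest in the series, yet the libraries described here are all controls. Of the 19 genes of double-stranded RNA sensing and interferon with a mean of at least 10, replicate 2 was the highest library for 17. Replicate 3 was the lowest for 16 of the 19 (17 by share). Of all 23357 genes with such a mean, 7203 were highest in replicate 2 and 7598 lowest in replicate 3. The list took 0.0287, 0.0536 and 0.0218% of the reads. Irf3, the transcription factor downstream of the sensors, had 3016, 3270 and 2764, and Ifit2, an interferon-induced RNA-binding protein, 2666, 3298 and 2722. The interferon gene Ifnb1 had no read. Without replicate 2, the list took 0.0253% of the reads.

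Among the 10 most uneven genes with a mean of at least 1000, 4 are interferon-induced genes, and of these Ifit3 is in the list above. Iigp1, an interferon-induced GTPase, had 426, 4114 and 73.5. Igtp, of the same family, had 579, 5279 and 284, and Gbp2, a guanylate-binding protein, 640, 4984 and 310. Ifit3 had 511, 3690 and 266. Replicate 2 was high and the other libraries low for each of the 4. In the same library, muscle genes were low. Myh3, the embryonic myosin heavy chain, had 2264, 205 and 1560, and Car3, a carbonic anhydrase of muscle and fat, 2912, 56.7 and 1299.

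Sex-linked genes also set replicate 2 apart. Xist, the noncoding RNA of the inactive X chromosome, had 7851, 0 and 6503. Eif2s3y, a gene of the Y chromosome, had 0, 3782 and 0. The labels name no sex for these animals. Replicate 2 is thus the library with Y-linked reads, with the most reads on interferon-induced genes and with the fewest on muscle genes, and these 3 features cannot be told apart from the animal in a single library. The last 2 of the 10 are loci without a symbol, over Gm8210 on chromosome 1 (9369, 515 and 497) and over Tpm3-rs7 on chromosome 14 (84.4, 163 and 3138), each high in a single library.

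**Figure D5:**
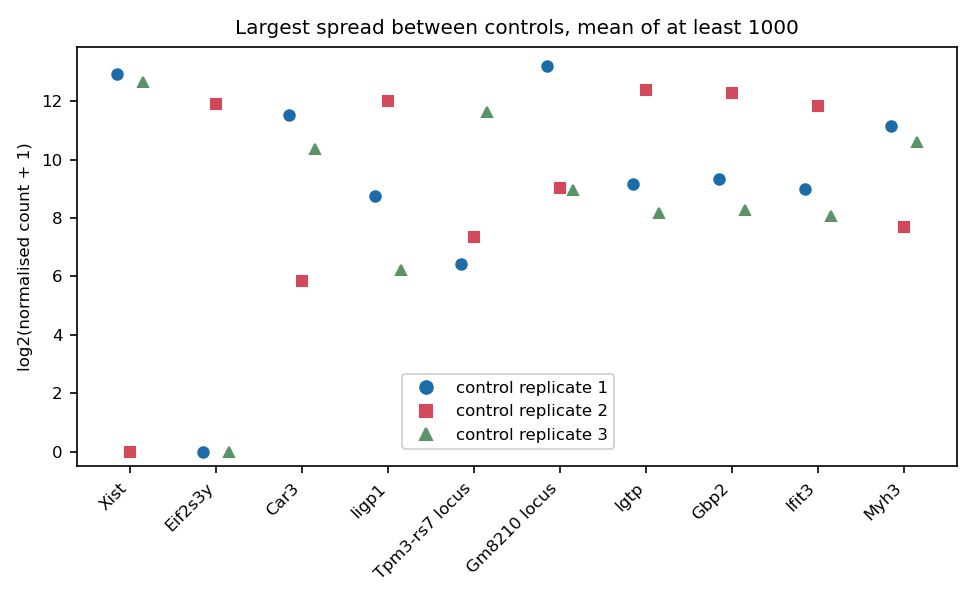
log2(normalized count + 1) (y axis) of the 10 genes with the largest SD on this scale among the genes with a mean of at least 1000, with a symbol for each of the 3 control libraries. Iigp1, Igtp, Gbp2 and Ifit3 are high in replicate 2, where Car3 and Myh3 are low, and Xist and Eif2s3y lie at 0 in the libraries without reads.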

How the data were processed

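Sciatic nerves of 3 control mice at postnatal day 4 gave 1 library each, and the 3 mutant libraries were not used. The authors mapped paired-end reads to mm10 with STAR 2.4.0, counted those on constitutive regions of FAST DB genes and scaled each library by its DESeq2 size factor. The deposited signal per gene is therefore a normalized count with no correction for gene length. Whole reads (tolerance 0.01) were recovered for 100% of the values. Their total, 50938349 to 68654387 per library, is the depth on genes and not the number of reads sequenced, which was larger. Near-identical and overlapping genes can share reads.

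Shares are a gene's value over the sum of its library. Exon lengths came from GENCODE M21 by symbol, chromosome, strand and overlap (95.1% of genes with a symbol). The 35 lists and the members were chosen with earlier results of these data known, and no test was run, since there is 1 group. The mitochondrial list was matched by coordinates because its loci carry no symbol. A row that joins several symbols counts only if all are in the list, and Sox2, Jun, Junb, Jund, Hspa1a, Hspa1b and Ahsp are not analysed here. The genes named are the 30 highest, the 3 highest and the lowest of each list, the 10 of largest SD of log2(value + 1) among those with a mean of at least 1000, and the highest locus without a symbol. Some genes that this rule names are not reported here. Others are marked or follow from a count. The steps were tested on simulated data. Alternatives left out each library, changed the total, the length, the level limits and the pseudocount. Python 3.11.15 with numpy 2.4.6, pandas and matplotlib and R 4.3.3 with edgeR 4.0.16 were used.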

Additional observations from a re-analysis of the deposited data

How the results depend on the processing

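No paired analysis was possible because a single group is described. With any library left out, 29 to 30 of the 30 highest genes and 97 to 98 of the 100 highest were shared with those reported. Leaving out a library gave a median CV of 7.22 to 10.8%, 399 to 628 genes of at least 2-fold range and 3 to 9 of the same 10 most uneven genes. The lowest CV and the lowest number of genes came without replicate 1, and 3 shared uneven genes without replicate 2. The CV and range of 2 libraries tend to be smaller than those of 3 whichever library is left out. With a mean of at least 10 instead of 100, the median CV was 17.6% and 6460 genes had a 2-fold range.

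Per kilobase, 17 of the 30 and 58 of the 100 highest genes were shared, loci without a symbol having no length, and 19 of the 30 highest among genes with a length. The highest 1, 10, 100 and 1000 then held 3.01, 12.5, 30.6 and 64.5%, the lipid lists 1.12%, fibroblast 2.56%, immune 0.102%, blood 0.302% and muscle with fat 0.130%. With only genes with a symbol in the total, the highest 10, 100 and 1000 held 14.7, 28.6 and 59.0%, Schwann cell lists 9.11%, lipid lists 1.55% and fibroblast 5.10%. With the myelin genes taken out of the total but not out of the lists, Schwann cell lists, most of whose reads are on myelin genes, came to 8.38% of that total and lipid lists to 1.43%. Without mitochondrial and ribosomal RNA loci, a setting chosen after seeing the data, the highest 10, 100 and 1000 held 14.2, 27.5 and 57.2%, Schwann cell lists 8.76%, lipid lists 1.49% and fibroblast 4.91%. By bases that all transcripts share, also chosen later, 3 of the 10 highest per kb were kept, and 6 among genes with at least 500 such bases. These values move by construction of the total or the length. Depth limits values of up to 3 reads.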

Other observations

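The locus on the strand opposite to Col1a1 (GSMG0065755, chromosome 11, 94936149 to 94953046, minus strand), chosen after its values were seen, carries no symbol. It had normalized counts of 27422, 29702 and 26485, which is 2.20, 2.25 and 2.28% of the Col1a1 values of the same libraries. On the mitochondrial chromosome, where both strands carry genes, the 8 loci of the plus strand held 7.70% and all 13 loci 7.73% of the reads.

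Several other genes were uneven as well, and are named here after their values were seen. Eln, which encodes elastin of large vessels and connective tissue, had 49418, 10510 and 8561, highest in replicate 1 as Acta2 and Tagln were. Alad, an enzyme of heme synthesis, had 5698, 22312 and 7312, and Dynlt1b, a dynein light chain, 3867, 14886 and 15000. Col28a1, a collagen of peripheral nerve, had 20256, 4334 and 16905. Of the 60 most uneven genes with a mean of at least 1000, 26 were highest in replicate 1, 24 in replicate 2 and 10 in replicate 3.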
